A study of Mus musculus with 15 samples.

Results

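The gene group described here holds 10 interleukin-1 (IL-1) and inflammasome genes, namely Il1b, Il1rn, Il1r2, Il1rap, Il18, Nlrp3, Pycard, Casp1, Casp4 and Gsdmd, out of 55416 gene identifiers counted in mouse whole blood. They were taken by name, and the list was chosen with earlier results of these data known. All 10 were found among the identifiers through the GENCODE vM39 annotation. The study asked how the timing of a neck dissection (ND), the surgical removal of the cervical lymph nodes, bears on the blood of mice given an antibody against the immune checkpoint receptor CTLA-4. Young female wild-type C57BL/6 mice received 4MOSC1 cells, a mouse oral squamous cell carcinoma line, into the tongue. The early ND group (5 mice) and the late ND group (5 mice) each had 2 doses of αCTLA-4 and differed in when the surgery was placed. The untreated group (5 mice) had neither antibody nor surgery, and the labels give it the same transplantation text with 10 days of growth, whereas the study's methods do not say whether these mice carried tumors. The antibody is shared by both ND groups and absent from the untreated group. Antibody and surgery therefore cannot be told apart in a difference between early ND and untreated mice. The same holds for late ND if its surgery came before the bleeding, which the sources leave unclear. The main text of the study dates the bleeding to after the delayed surgery, but its own figure legend dates it to before, so the words late ND name a group and not a completed operation. Each mouse gave 1 library.

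IL-1β and IL-18 are inflammatory cytokines that are made as inactive precursors. A sensor such as NLRP3 joins the adaptor ASC, the product of Pycard, and the protease caspase-1 in an inflammasome, where caspase-1 cuts both precursors and gasdermin D, which then opens pores in the cell membrane. Caspase-4 of the mouse, long called caspase-11, responds to bacterial lipopolysaccharide inside the cell and also cuts gasdermin D. IL-1 signals through its type 1 receptor together with the accessory protein Il1rap, while Il1rn encodes a receptor antagonist and Il1r2 a decoy receptor that binds IL-1 without signalling. In blood, neutrophils and monocytes carry many of these transcripts, but counts from whole blood do not show which cells a transcript came from.

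The 250 bases that precede the annotated start of 5 members are shown first, since these members had the 5 largest log2 differences between late and early ND. The windows were read from the GRCm39 genome, the build that the study's methods name for the alignment. They are given on the strand of each gene and 5′ to 3′, and capitals mark matches on either strand to 4 motifs, merged where matches overlap. The motifs were the PU.1 core GAGGAA, the C/EBP motif TTGCNNAA, the AP-1 motif TGANTCA and an NF-κB core of GGG, any 5 bases and CC. The Il1b window lies at chr2:129213060-129213309 on the minus strand, and the Il1rn window at chr2:24226615-24226864 on the plus strand. The Il1r2 window, chr1:40123608-40123857 on the plus strand, falls in an intron of a longer Il1r2 transcript. The Nlrp3 window, chr11:59433262-59433511 on the plus strand, likewise falls in an intron of a Nlrp3 transcript that starts upstream. The Il1rap window lies at chr16:26400100-26400349 on the plus strand.
Il1b: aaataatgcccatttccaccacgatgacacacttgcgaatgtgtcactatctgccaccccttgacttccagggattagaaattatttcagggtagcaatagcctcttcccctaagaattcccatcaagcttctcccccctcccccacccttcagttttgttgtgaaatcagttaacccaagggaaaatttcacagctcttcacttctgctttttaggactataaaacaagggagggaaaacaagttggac
Il1rn: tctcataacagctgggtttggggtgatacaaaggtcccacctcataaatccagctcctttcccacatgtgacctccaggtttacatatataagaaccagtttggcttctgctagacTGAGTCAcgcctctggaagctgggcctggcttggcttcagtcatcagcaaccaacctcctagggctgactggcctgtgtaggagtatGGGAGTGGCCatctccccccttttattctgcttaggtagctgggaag
Il1r2: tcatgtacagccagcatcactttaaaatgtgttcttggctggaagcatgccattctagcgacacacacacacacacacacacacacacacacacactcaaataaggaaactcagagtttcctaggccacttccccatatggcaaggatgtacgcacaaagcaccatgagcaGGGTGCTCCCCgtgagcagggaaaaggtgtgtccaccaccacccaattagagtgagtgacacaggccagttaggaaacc
Il1rap: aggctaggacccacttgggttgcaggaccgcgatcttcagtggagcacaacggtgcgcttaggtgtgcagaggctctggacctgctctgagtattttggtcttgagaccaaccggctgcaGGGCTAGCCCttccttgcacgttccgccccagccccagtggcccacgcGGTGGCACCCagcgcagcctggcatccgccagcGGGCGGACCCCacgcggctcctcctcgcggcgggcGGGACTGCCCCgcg
Nlrp3: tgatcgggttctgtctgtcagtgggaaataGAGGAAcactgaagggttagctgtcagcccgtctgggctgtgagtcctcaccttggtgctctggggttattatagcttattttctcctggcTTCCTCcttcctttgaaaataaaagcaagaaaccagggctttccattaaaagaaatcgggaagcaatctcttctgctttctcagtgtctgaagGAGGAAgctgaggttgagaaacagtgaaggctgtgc

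The Il1b window held no match to any of the 4 motifs. That of Il1rn held 1 AP-1 match, which began 134 bases before the start, and 1 NF-κB match. The Il1rap window held 4 NF-κB matches and the Nlrp3 window 3 PU.1 matches. Among the 10 members, 6 windows held the NF-κB core, 4 the PU.1 core, 1 the C/EBP motif and 1 the AP-1 motif. The same search over 21627 promoter windows of this length found them in 47.8%, 23.0%, 9.37% and 6.19% of windows. A match is a run of letters and not a measured binding site.

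On GRCm39 the ligand genes were annotated as Il1b (ENSMUSG00000027398) at chr2:129206490-129213059 (minus strand) and Il18 (ENSMUSG00000039217) at chr9:50466081-50493633 (plus strand). The antagonist gene was Il1rn (ENSMUSG00000026981) at chr2:24226865-24241506 (plus strand), and the receptor genes were Il1r2 (ENSMUSG00000026073) at chr1:40113239-40164391 (plus strand) and Il1rap (ENSMUSG00000022514) at chr16:26400350-26548880 (plus strand). The inflammasome genes were Nlrp3 (ENSMUSG00000032691) at chr11:59432394-59457782 (plus strand), Pycard (ENSMUSG00000030793) at chr7:127588558-127593039 (minus strand) and Casp1 (ENSMUSG00000025888) at chr9:5298508-5307290 (plus strand). Beside Casp1 lay Casp4 (ENSMUSG00000033538) at chr9:5308828-5336783 (plus strand), and the pore-forming substrate was Gsdmd (ENSMUSG00000022575) at chr15:75733974-75739257 (plus strand). All are protein-coding genes.

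Levels are given as CPM, the counts of a gene scaled to a common library size, after scaling of the library sizes by the trimmed mean of M values (TMM). Gene counts per library ran from 5527108 to 13924361, with medians of 6727311 in early ND, 10929570 in late ND and 6266684 in untreated mice. In 3 libraries, untreated 2, late ND 2 and late ND 3, reads of 18S ribosomal RNA (gene Rn18s-rs5) were scarce, with at most 766 CPM of the library total, against at least 13402 in the other 12 libraries. Skin and sebaceous gland markers stood apart in untreated 5, early ND 3 and late ND 5, where 8 markers summed to 4090.4, 2176 and 2128 CPM, against at most 705 CPM in the other 12 libraries. Blood was drawn from the cheek. Hemoglobin genes took 14.9 to 29.3% of gene counts in late ND libraries, 38.3 to 64.1% in early ND libraries and 31.6 to 61.7% in untreated libraries. The markers of blood cells were all present, and no marker on the neutrophil, monocyte, T cell, B cell or erythroid list was at 0 in every library.

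Il1b had the highest level of the 10 members. Per kilobase of the canonical transcript, its mean over the 15 libraries was 185 CPM per kb, followed by Il1r2 at 63.6, Gsdmd at 32.9 and Casp4 at 23.8 CPM per kb. Il1b exceeded Il1r2 in 15 of 15 libraries on this scale, Il1r2 exceeded Gsdmd in 11 and Gsdmd exceeded Casp4 in 12. Casp1, Il1rap, Il1rn, Nlrp3 and Pycard followed at 18.8, 14.1, 13.9, 10.9 and 6.70 CPM per kb, and Il18 was lowest at 2.36 CPM per kb. Il1rap and Il1rn could not be ordered, since Il1rap was the higher in 5 of 15 libraries. The middle of the order depended on the length used. Per kilobase of all annotated exons, Nlrp3 moved from rank 8 to rank 4 and Il1rap from rank 6 to rank 9, whereas Il1b, Il1r2 and Gsdmd stayed at the top and Il18 at the bottom. On that scale Il1r2 exceeded Gsdmd in 9 of 15 libraries. In early ND mice the mean of Il1r2 was below that of Gsdmd on both scales. The means were 29.3 and 29.4 CPM per kb of canonical transcript, and 16.5 and 19.4 CPM per kb of all exons.

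All 10 members had a higher fitted mean in late ND than in early ND mice, but none passed the adjusted threshold of edgeR's quasi-likelihood test (adjusted p under 0.05), in either direction. Across the 13315 genes tested, 2.50% were called higher and 2.48% lower in late ND mice, and 51.8% had a log2 difference above 0. At an unadjusted p under 0.05, 7 of the 10 members were higher (Il1b, Il1rn, Il1r2, Il1rap, Nlrp3, Casp4 and Gsdmd) and 0 lower, against 14.4% and 9.33% of all genes. DESeq2, with the same adjusted threshold, called 3 members higher (Il1r2, Il1rn and Gsdmd), against 5.91% of the genes it tested. For no member were the 2 groups free of overlap, whereas 2.98% of all genes had every late ND mouse above every early ND mouse and 2.93% the reverse. The median log2 difference was 0.69 over the members and 0.014 over all genes tested. The members were chosen with earlier results of these data known, and several follow one another closely across mice. They are therefore not 10 separate observations. The counts beside the shares of all genes, here and in the comparisons below, are descriptions and no test of the group. All 10 members passed the filter on low counts in each comparison.

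The count of members called by edgeR depended on single libraries. Without early ND 3, 4 members passed the adjusted threshold (Il1r2, Il1rap, Il1rn and Nlrp3), and without late ND 2, 2 members passed (Il1r2 and Il1rn). Scaling by library totals in place of TMM moved the median of all genes to 0.86 and that of the members to 1.499, and all 10 members were then called. Among libraries rich in 18S sequence, all 10 differences stayed above 0, 0 members passed in edgeR and 6 had an unadjusted p under 0.05. Without the libraries high in skin markers, a choice made after seeing the data, all 10 also stayed above 0 and 4 passed (Il1r2, Il1rap, Il1rn and Casp4). Outside the main fit and DESeq2, the share of all genes called was not computed, here or for the comparisons below. The counts under these other settings therefore cannot be read as particular to the members.

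**Figure D1:**
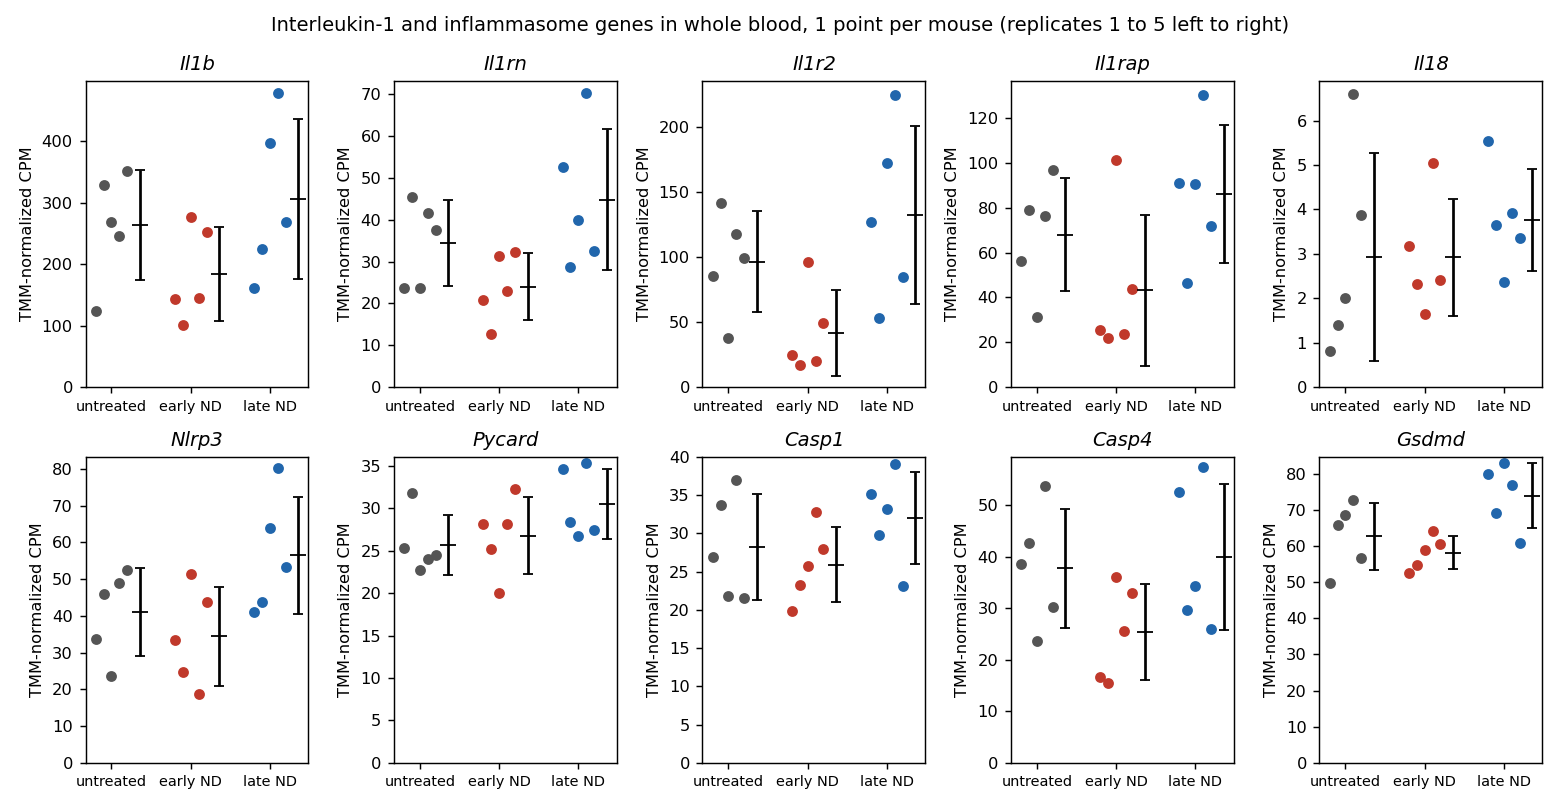
TMM-normalized CPM (y axis, linear from 0) of the 10 members in untreated (grey), early ND (red) and late ND (blue) mice, 1 point per mouse, with the mean and SD of 5 mice as a bar at the right of each group. The groups overlap in each panel, and early ND 3 stands well above the other early ND mice for Il1r2 (96.1 CPM) and Il1rap (101 CPM).

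On the ligand side, Il1b, which encodes the IL-1β precursor, was measured in late ND mice 1 to 5 at 161, 225, 397, 479 and 268 CPM. Early ND mice 1 to 5 had 143, 102, 276, 145 and 253 CPM, and untreated mice 1 to 5 had 123, 328, 268, 246 and 352 CPM. The late ND mean was 306 ± 129 CPM (SD, n = 5), the early ND mean 184 ± 76.0 CPM (SD, n = 5) and the untreated mean 263 ± 89.3 CPM (SD, n = 5). Late ND 3 and late ND 4 lay above every early ND mouse, while late ND 1, late ND 2 and late ND 5 fell among the early ND values. The late ND minus early ND difference was 0.75 on the log2 scale (SE 0.33, edgeR adjusted p = 0.190). Of the exon bases of Il1b, 3.65% lie opposite its antisense gene Il1bos, and the strand setting of the counting was not given in the sources used here.

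Il18, which encodes the other caspase-1 substrate among the cytokines, was covered by few reads, 2 to 91 per library. Its level ran from 2.37 to 5.54 CPM in late ND mice, from 1.64 to 5.05 CPM in early ND mice and from 0.804 to 6.59 CPM in untreated mice. The 3 ranges overlapped, and the late ND minus early ND difference of 0.45 (SE 0.31, edgeR adjusted p = 0.408) did not pass the test, with a 95% interval (normal approximation from the SE) of -0.15 to 1.05.

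Il1rn, the IL-1 receptor antagonist, was at 52.5, 28.8, 39.9, 70.3 and 32.5 CPM in late ND mice 1 to 5. It was at 20.8, 12.8, 31.3, 23.1 and 32.3 CPM in early ND mice 1 to 5 and at 23.7, 45.5, 23.6, 41.7 and 37.6 CPM in untreated mice 1 to 5. Late ND 2 was the single late ND mouse at or below the highest early ND value, and the means were 44.8 ± 16.9 CPM (SD, n = 5) and 24.0 ± 8.07 CPM (SD, n = 5). The log2 difference was 0.91 (SE 0.28, edgeR adjusted p = 0.0732).

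Il1r2, the decoy receptor, had the largest log2 difference of the 10 members. Late ND mice 1 to 5 had 128, 53.4, 173, 225 and 84.8 CPM. Early ND mice 1 to 5 had 25.0, 17.2, 96.1, 20.2 and 49.3 CPM and untreated mice 1 to 5 had 85.6, 142, 38.0, 118 and 99.5 CPM. Early ND 1, 2, 4 and 5 lay below every late ND mouse, and early ND 3 lay among them. The mean was 133 ± 68.4 CPM (SD, n = 5) in late ND and 41.6 ± 33.0 CPM (SD, n = 5) in early ND mice, a log2 difference of 1.66 (SE 0.49, edgeR adjusted p = 0.0665). Without early ND 3 the difference was 2.26 (edgeR adjusted p = 0.0122), and among libraries rich in 18S sequence it was 1.79 (edgeR adjusted p = 0.0836).

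Il1rap, the accessory chain shared by the receptors of IL-1, IL-33 and IL-36, was at 91.2, 46.6, 90.8, 131 and 71.7 CPM in late ND mice 1 to 5. Early ND mice 1 to 5 had 25.3, 21.7, 101, 23.8 and 43.9 CPM and untreated mice 1 to 5 had 56.3, 79.0, 31.4, 76.6 and 97.1 CPM. Early ND 3 was again apart from its group, with the second highest value of all 15 mice. The log2 difference between late and early ND was 0.99 (SE 0.41, edgeR adjusted p = 0.168), and without early ND 3 it was 1.61 (edgeR adjusted p = 0.0106). Opposite-strand annotation (Gm20319) covers 9.32% of the exon bases of Il1rap.

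Nlrp3, the sensor, had 41.2, 43.9, 63.9, 80.3 and 53.4 CPM in late ND mice 1 to 5. In early ND mice 1 to 5 it had 33.5, 24.7, 51.3, 18.8 and 43.9 CPM, and in untreated mice 1 to 5 33.8, 46.1, 23.6, 49.0 and 52.6 CPM. Late ND 3, 4 and 5 lay above every early ND mouse. The log2 difference was 0.72 (SE 0.26, edgeR adjusted p = 0.120).

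Pycard, the adaptor ASC, had the smallest log2 difference of the 10 members between late and early ND. Its level ran from 26.7 to 35.3 CPM in late ND, from 19.98 to 32.3 CPM in early ND and from 22.7 to 31.8 CPM in untreated mice, and its log2 difference between late and early ND was 0.22 (SE 0.14, edgeR adjusted p = 0.367). Casp1, the inflammasome protease, ran from 23.1 to 39.1 CPM in late ND, from 19.9 to 32.8 CPM in early ND and from 21.6 to 37.0 CPM in untreated mice. Its log2 difference was 0.34 (SE 0.16, edgeR adjusted p = 0.212). Both genes overlapped widely between the groups. Opposite-strand genes cover 11.45% of the exon bases of Pycard (Gm45205) and 3.51% of those of Casp1 (Gm67740).

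Casp4, the lipopolysaccharide-responsive caspase that follows Casp1 on chromosome 9, was at 52.6, 29.7, 34.3, 57.3 and 26.0 CPM in late ND mice 1 to 5. The values were 16.7, 15.6, 36.1, 25.6 and 33.0 CPM in early ND mice 1 to 5 and 38.6, 42.6, 23.6, 53.7 and 30.2 CPM in untreated mice 1 to 5. Late ND 1 and late ND 4 exceeded every early ND mouse, and the log2 difference was 0.67 (SE 0.28, edgeR adjusted p = 0.170).

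Gsdmd, the pore-forming substrate of both caspases, was at 79.8, 69.0, 83.0, 77.0 and 60.9 CPM in late ND mice 1 to 5. Early ND mice 1 to 5 had 52.6, 54.7, 58.8, 64.2 and 60.5 CPM and untreated mice 1 to 5 had 49.8, 65.7, 68.5, 72.7 and 56.8 CPM. Late ND 5 was the single late ND mouse within the early ND range. The log2 difference of 0.37 was small but its error was the smallest of the 10 (SE 0.11, edgeR adjusted p = 0.0703). Gm62577 lies opposite 9.42% of the Gsdmd exon bases.

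Against untreated mice, the late ND group again had 10 of 10 members with a log2 difference above 0, and 50.4% of the 13547 genes tested did. No member passed the adjusted threshold in edgeR or DESeq2, and none had an unadjusted edgeR p under 0.05 in either direction. Of all genes, edgeR called 0.989% higher and 2.01% lower, DESeq2 called 2.10% higher, and 8.69% were higher and 8.28% lower at an unadjusted p under 0.05. The member differences ran from 0.067 for Casp4 (SE 0.25) to 0.45 for Nlrp3 (SE 0.23), with a median of 0.27 beside 0.0023 over all genes. The groups overlapped for every member, while they did not overlap, with late ND higher, for 2.50% and, with late ND lower, for 2.98% of genes. Library totals moved the median of all genes to 0.91 and that of the members to 1.09, and all 10 members were then called. All 10 differences also stayed above 0 among libraries rich in 18S sequence and without those high in skin markers, where edgeR called 0 members and 2 and 1 had an unadjusted p under 0.05.

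Early ND mice had 9 of 10 members below the untreated mean in the fit, Pycard being the exception at a log2 difference of 0.041 (SE 0.14). Among all 12151 genes tested, 49.6% had a difference above 0. No member was called, and neither edgeR nor DESeq2 called any gene higher (0.00%), nor did edgeR call any lower (0.00%). At an unadjusted p under 0.05, Il1r2 (log2 -1.21, SE 0.47, edgeR adjusted p = 0.938) and Casp4 (log2 -0.59, SE 0.27, edgeR adjusted p = 0.938) were lower and no member was higher, against 2.33% and 2.11% of all genes. The groups overlapped for all 10 members. They did not overlap, with early ND higher, for 0.346% and, with early ND lower, for 0.230% of genes. The member median was -0.39, beside -0.0022 over all genes. Among libraries rich in 18S sequence 9 of 10 members again lay below 0, none with an unadjusted edgeR p under 0.05, and without those high in skin markers 8 lay below 0, 4 had such a p and none was called. These 3 comparisons share groups, so that a low early ND group enters 2 of them.

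**Figure D2:**
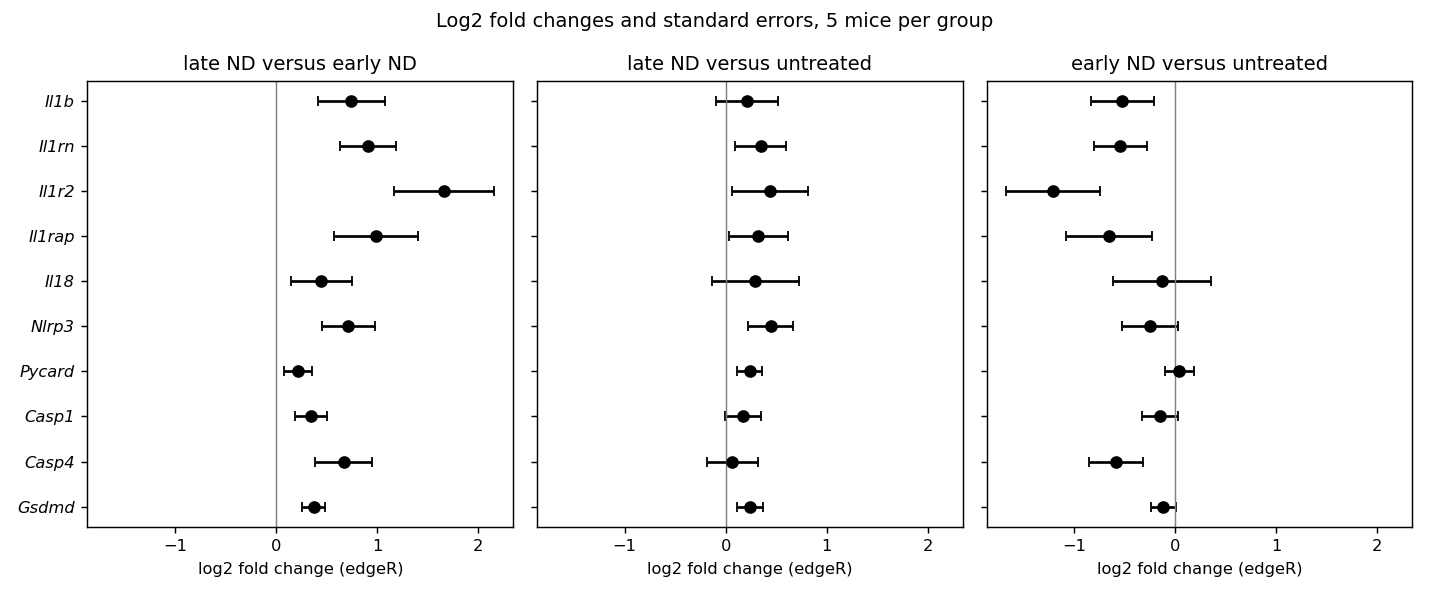
Log2 fold change of each member (x axis) in the 3 comparisons, with the edgeR estimate as a point and 1 standard error on each side. In late ND versus early ND all 10 points lie right of 0, from 0.22 for Pycard to 1.66 for Il1r2, and in early ND versus untreated 9 of 10 lie left of 0.

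Ratios between members of 1 library do not depend on the scaling between libraries, and 3 of them were compared between groups, each p being two-sided from an exact permutation test and adjusted by Benjamini-Hochberg over 9 comparisons. The log2 ratio of Il1r2 to Il1rap, the decoy receptor over the signalling chain, was 0.48, 0.20, 0.93, 0.78 and 0.24 in late ND mice 1 to 5. In early ND mice 1 to 5 it was -0.022, -0.33, -0.076, -0.24 and 0.17, and in untreated mice 1 to 5 0.60, 0.84, 0.28, 0.62 and 0.035. All 5 late ND mice had a higher ratio than any early ND mouse, while untreated 5 lay within the early ND range. The means were 0.53 ± 0.32 (SD, n = 5) in late ND, -0.099 ± 0.19 (SD, n = 5) in early ND and 0.48 ± 0.32 (SD, n = 5) in untreated mice. The difference between late and early ND was 0.63 (exact permutation p = 0.00794, the smallest that 5 against 5 allow, adjusted p = 0.0714), and between early ND and untreated it was -0.57 (exact permutation p = 0.0159, adjusted p = 0.0714). Neither passed after adjustment, and late ND differed from untreated by 0.051 (exact permutation adjusted p = 0.893). Without untreated 5, the difference between early ND and untreated was -0.68 (exact permutation p = 0.00794, adjusted p = 0.0357). No other untreated mouse lay within the early ND range, so leaving untreated 5 out fixed this p at the smallest possible. A single p of 0.00794 among 9 comparisons adjusts to 0.0714. The value of 0.0357 came from the tie with late versus early ND and is no separate result. The fitted log2 differences of Il1r2 and Il1rap had the same sign in each comparison, so that the ratio describes unequal differences and not a gene that stayed level.

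The ratio of Il1rn to Il1b, antagonist over agonist, did not separate the groups. Its mean log2 value was -2.74 ± 0.66 (SD, n = 5) in late ND, -2.90 ± 0.19 (SD, n = 5) in early ND and -2.90 ± 0.47 (SD, n = 5) in untreated mice. The differences of 0.16, 0.16 and -0.0037 were within the spread between mice (exact permutation adjusted p = 0.893, 0.893 and 0.984), and late ND 1 was apart from its group at -1.61. Back on the linear scale, there were 0.150 Il1rn reads per Il1b read in late ND and 0.134 in both other groups, as geometric means. The ratio of Casp4 to Casp1 had a mean of 0.27 ± 0.28 (SD, n = 5) in late ND, -0.091 ± 0.44 (SD, n = 5) in early ND and 0.40 ± 0.18 (SD, n = 5) in untreated mice. Its differences were 0.36 between late and early ND (exact permutation p = 0.167, adjusted p = 0.375), -0.49 between early ND and untreated (exact permutation p = 0.0714, adjusted p = 0.214) and -0.13 between late ND and untreated (exact permutation adjusted p = 0.771). Early ND 3 and early ND 5 lay among the untreated values for this ratio.

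**Figure D3:**
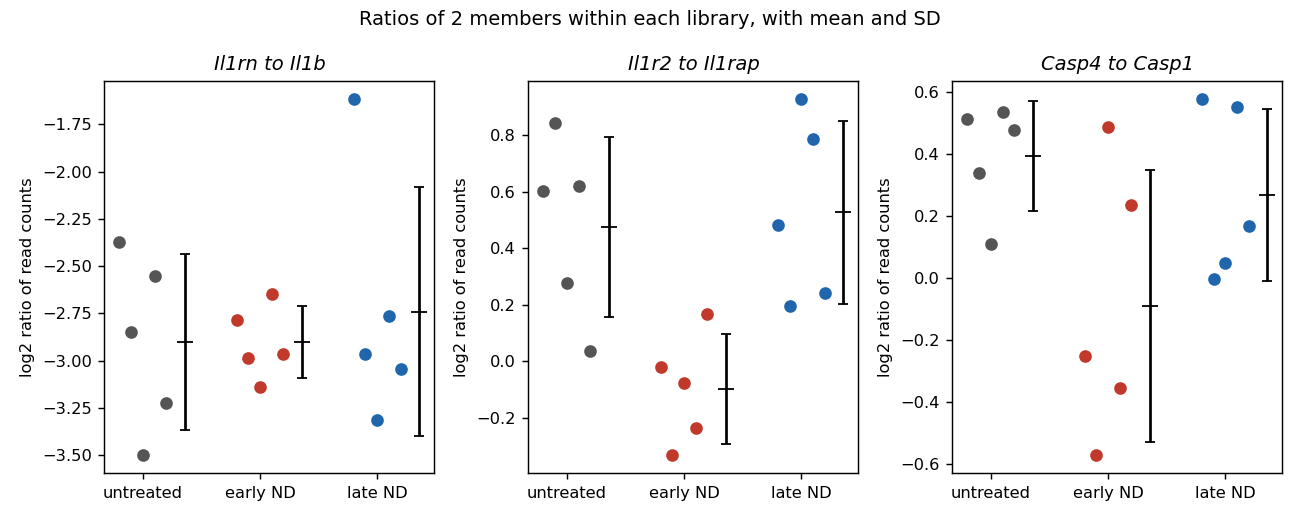
Log2 ratio of read counts of 2 members within each library (y axis, own range in each panel) in untreated (grey), early ND (red) and late ND (blue) mice, with mean and SD of 5 mice. For Il1r2 to Il1rap the lowest late ND mouse (0.20) lies above the highest early ND mouse (0.17), and the other panels overlap.

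Across the 15 mice, some members followed one another closely and others did not. The Pearson correlation of log2 CPM was 0.96 between Il1r2 and Il1rap, 0.89 between Il1r2 and Il1rn, 0.88 between Il1rap and Nlrp3 and 0.87 between Casp4 and Il1rn. Il1b was closest to Nlrp3 at 0.76 and Casp1 to Casp4 at 0.80. Pycard reached at most 0.50, with Casp1, and Il18 at most 0.48, with Gsdmd. These values are descriptions over 15 libraries that share their groups and scaling. After subtraction of the group means, Il1r2 and Il1rap still had 0.95 and Il1rap and Nlrp3 0.85.

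Among 13420 genes compared, those nearest to each member by this measure are given without inference on function or control. Il1b was nearest to Vamp8 (0.94), Jaml (0.93) and Il1bos (0.93), the last being its antisense gene. Il1rn was nearest to Il36g (0.97), Il13ra1 (0.97) and Dmxl2 (0.96). Il1r2 was nearest to Ggt5 (0.99), Picalm (0.98) and Pglyrp1 (0.98), which encodes a peptidoglycan recognition protein of neutrophil granules. Il1rap was nearest to Crispld2 (0.97), then to the member Il1r2 and to Rnd1 (0.96). Nlrp3 was nearest to Cebpd (0.97), a transcription factor gene of the C/EBP family, Lpcat2 (0.96) and 6430548M08Rik (0.96). Casp4 was nearest to Anxa1 (0.94), Ifitm6 (0.94) and B230303A05Rik (0.94). The other members had looser neighbours. They were Rbm43 (0.90), Cd300c2 (0.88) and Rsrp1 (0.85) for Gsdmd, and Prkx (0.87), Ggnbp1 (0.83) and Sdf2l1 (0.79) for Pycard. For Casp1 they were Ifitm3 (0.85), Rnf31 (0.84) and Acrbp (0.82), and for Il18 Megf11 (0.87), Gm45187 (0.85) and Gm42501 (0.84).

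Levels of neutrophil markers were read beside those of the members, and no correlation with the marker sum was computed. The 10 neutrophil markers summed to 5918 to 15571 CPM in late ND mice, 2503 to 7724 CPM in early ND mice and 4628 to 11913 CPM in untreated mice. Of these markers, 8 of 10 had a log2 difference above 0 between late and early ND, with a median of 1.09, and none was called by edgeR. Against untreated mice, 0 of 10 were above 0 in early ND (median -0.86) and 6 of 10 in late ND (median 0.19). None was called in these 2 comparisons either. Early ND 3 had the highest neutrophil sum of its group at 7724 CPM, and late ND 4, which had the highest Il1b, Il1rn, Il1r2, Il1rap, Nlrp3, Pycard, Casp1 and Casp4 of the late ND mice, had the highest neutrophil sum of all 15 mice. For Il1b, other mice differed from this pattern. Untreated 3 had the lowest sum of its group (4628 CPM) and 268 CPM of Il1b, whereas untreated 1 (8380 CPM) had 123 CPM of Il1b. In its other members, untreated 3 had the lowest Il1r2, Il1rap, Il1rn, Nlrp3, Casp4 and Pycard of its group. Its Il18, Casp1 and Gsdmd were not the lowest. The 8 monocyte markers summed to 928 to 1458 CPM in late ND, 558 to 1255 CPM in early ND and 551 to 958 CPM in untreated mice, and Csf1r was among those called higher in late than in early ND. Of the 9 erythroid markers, 6 were called lower in late than in early ND mice. The part of these markers in the member differences was not tested. In bulk blood, fewer cells of a type and less RNA per cell cannot be told apart.

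**Figure D4:**
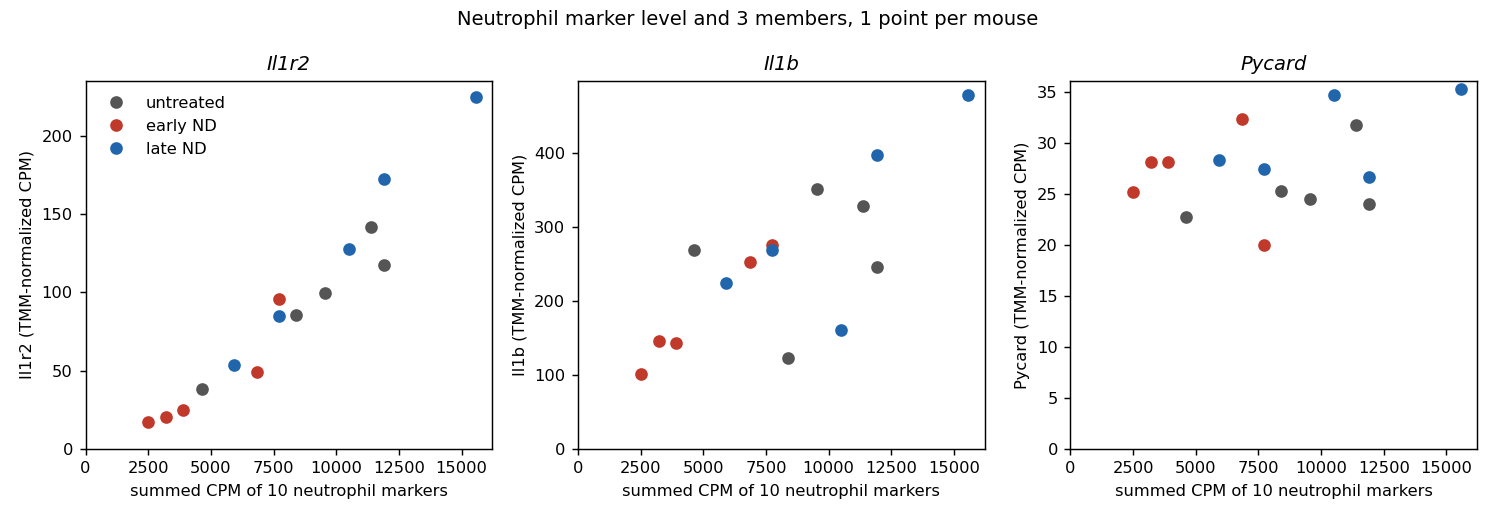
CPM of Il1r2, Il1b and Pycard (y axes) against the summed CPM of 10 neutrophil markers (x axis) in each mouse, with untreated in grey, early ND in red and late ND in blue. Il1r2 is at 17.2 CPM in the mouse with the lowest marker sum (early ND 2, 2503 CPM) and at 225 CPM in the mouse with the highest (late ND 4, 15571 CPM). Pycard is at 25.2 and 35.3 CPM in the same 2 mice, within a range of 19.98 to 35.3 CPM over all mice. Il1b was at 268 CPM in untreated 3 (marker sum 4628 CPM) and at 123 CPM in untreated 1 (8380 CPM).

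The wider pathway was read from a list of 52 further genes, of which 45 could be tested between late and early ND. Of these, 1 was called higher and 0 lower in edgeR, 11 were higher and 2 lower at an unadjusted p under 0.05, and the median log2 difference was 0.084. Over all genes tested the calls were 2.50% higher and 2.48% lower, so the share of pathway genes that edgeR called higher was near that of all genes. At an unadjusted p under 0.05, 14.4% of all genes were higher and 9.33% lower. The pathway share was above the first and below the second. The edgeR call was Nlrp1b, a sensor of bacterial proteases. It was at 9.08, 5.49, 5.69, 10.5 and 8.27 CPM in late ND mice 1 to 5 and at 4.08, 5.47, 3.15, 4.33 and 5.02 CPM in early ND mice 1 to 5, a log2 difference of 0.85 (SE 0.22, edgeR adjusted p = 0.0499). The 5 late ND mice were all above the 5 early ND mice, the nearest pair being 5.49 and 5.47 CPM. The call was lost on leaving out any mouse other than late ND 2, in 9 of 10 such fits (edgeR adjusted p up to 0.152). DESeq2 called 6 of 44 pathway genes higher, Nlrp1b and Il36g among them, a larger share than the 5.91% of all genes it tested.

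Between late ND and untreated mice, 44 pathway genes were tested and edgeR called 2 higher and 0 lower, against 0.989% and 2.01% of all genes. At an unadjusted edgeR p under 0.05, 9 were higher and 2 lower, against 8.69% and 8.28% of all genes. Naip6, of the NAIP receptors for bacterial flagellin, was at 25.8, 23.8, 19.97, 23.0 and 21.3 CPM in late ND mice 1 to 5 and at 8.04, 10.9, 14.7, 17.9 and 12.9 CPM in untreated mice 1 to 5. Its log2 difference was 0.81 (SE 0.17, edgeR adjusted p = 0.0311). Nlrp1a, the neighbour and paralog of Nlrp1b, was at 8.80, 7.53, 9.33, 12.1 and 9.60 CPM in late ND mice 1 to 5 and at 6.03, 5.08, 4.89, 6.42 and 5.97 CPM in untreated mice 1 to 5 (log2 difference 0.74, SE 0.16, edgeR adjusted p = 0.0311). For both genes every late ND mouse lay above every untreated mouse, as for 2.50% of all genes, and both calls were lost in 8 of 10 fits that left out 1 mouse, the exceptions being untreated 4 and untreated 5. The Naip and Nlrp1 genes have near-identical copies among which reads can be split or dropped, so their counts are uncertain. Between early ND and untreated mice, 43 pathway genes were tested and 0 were called by edgeR or DESeq2. At an unadjusted p under 0.05 edgeR had 2 of them higher and 1 lower, against 2.11% and 2.33% of all genes.

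The 5 pathway genes of highest mean CPM, without correction for length, were Txnip, Ikbkb, Il18rap, Il36g and Myd88. Txnip, which encodes a thioredoxin-binding protein linked to NLRP3, averaged 427 CPM over the 15 libraries and differed by 0.16 on the log2 scale between late and early ND (SE 0.19, edgeR adjusted p = 0.672), although 29.3% of its exon bases lie opposite another gene. Ikbkb, a kinase subunit of the NF-κB pathway, averaged 115 CPM and differed by 0.11 (SE 0.14, edgeR adjusted p = 0.671). Il18rap, the accessory chain of the IL-18 receptor, averaged 111 CPM and differed by 0.52 (SE 0.25, edgeR adjusted p = 0.219). Il36g, an IL-36 family cytokine and the nearest neighbour of Il1rn above, had means of 148 ± 58.1 CPM (SD, n = 5) in late ND and 69.2 ± 32.9 CPM (SD, n = 5) in early ND mice, a log2 difference of 1.10 (SE 0.34, edgeR adjusted p = 0.0720). Myd88, the adaptor that carries the signal of the IL-1 receptors, had means of 140.1 ± 38.8 CPM (SD, n = 5) and 80.6 ± 28.3 CPM (SD, n = 5), a difference of 0.81 (SE 0.24, edgeR adjusted p = 0.0698). Acaa1a lies opposite 16.15% of the Myd88 exon bases. The signalling receptor Il1r1 averaged 1.44 CPM, and the ligands Il1a and Il33 averaged 1.60 and 1.14 CPM. These 3 genes were named after their values had been seen.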

How the data were processed

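Total RNA of mouse whole blood was sequenced from 15 mice, 5 per group, with groups taken from the labels. The deposited values are counts, namely the read pairs that the authors assigned to genes with HTSeq 0.13.5 after alignment with STAR 2.7.9 to GRCm39 and sorting with SAMtools 1.7. The strand setting and annotation release are not given in the sources used here, and the submitters' processing notes also list mm10. Of 55416 identifiers, 54749 matched GENCODE vM39. Rows that name no gene were left out. The members and lists were chosen with earlier results of these data known.

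Counts were compared between pairs of groups with edgeR 4.0.16 (R 4.3.3), using TMM scaling, filterByExpr, the quasi-likelihood test and Benjamini-Hochberg adjustment over all genes tested. The SE is the log2 fold change divided by the square root of F. DESeq2 1.42.0 was an alternative, beside other scalings, no filter, left-out libraries and a replicate block. In data simulated for late against early ND (13315 genes), edgeR recovered 59 of 100 genes changed by log2 1 and 89 of 100 changed by log2 2, and it also called 10 unchanged genes. The simulation gave both groups a common expression profile apart from the changed genes. It therefore left out the difference in hemoglobin share between the real groups. Ratios used a pseudocount of 0.5 counts, and correlations a prior count of 2. Named genes were the 10 members, pathway genes past the threshold in any comparison or among the 5 of highest mean CPM, and the 3 nearest genes of each member. The call of a further marker gene is not reported here. No pair of libraries was identical. Whether mice of a group were separate by cage or litter is not stated, and p-values set group differences against the spread between these mice.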

Additional observations from a re-analysis of the deposited data

Results flagged for a closer look

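In 2 of 39 groups of 5 mice that were tested, 1 mouse stood apart from its group by Dixon's criterion, which chance alone does in about 1 of 20 groups. The mouse early ND 3 had 101 CPM of Il1rap, apart from the next value of its group, 43.9 CPM. This library also held the highest neutrophil and skin marker sums of the early ND mice. Without it, the late ND minus early ND difference of Il1rap was 1.61 on the log2 scale in place of 0.99. The mouse untreated 2 had 31.8 CPM of Pycard, and the next value of its group was 25.3 CPM. This is 1 of the 3 libraries poor in 18S sequence.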

How the results depend on the processing

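Each group had 5 mice, and Il18 had 2 to 91 reads per library. Between late and early ND, 0 members passed in edgeR as described. The count was 10 with library totals, 3 without a filter on low counts, 3 with DESeq2, 4 without the libraries high in skin markers (an alternative chosen after seeing the data) and 1 (Il1r2) with a replicate block, and it ranged from 0 to 4 on leaving out 1 mouse. The other pathway genes called there numbered 38, 6, 6, 4 and 0 under the same 5 settings, 0 with DESeq2 size factors, without hemoglobin and 18S genes or among 18S-rich libraries, and 0 to 6 on leaving out 1 mouse. Apart from the main fit and DESeq2, the share of all genes called under each setting was not computed. Between late ND and untreated mice, library totals gave 10 members and 34 pathway genes. The 2 pathway calls became 1 in a fit of all 15 libraries, 0 among 18S-rich libraries, 1 without the libraries high in skin markers and 0 to 2 on leaving out 1 mouse. Between early ND and untreated mice, no setting called a member. The replicate numbers were not taken to pair mice, since in none of the 3 comparisons did every same-numbered pair of deviations correlate above 0.1, and the mean over 5 pairs was -0.013, 0.24 and -0.099. For late ND against untreated, all 5 pairs were above 0 (0.029 to 0.58) and 3 mice correlated best with their own number, a hint from the data and not the design, and the block called 0 members and 2 pathway genes there, as without it.

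Several small differences turned sign. Among 18S-rich libraries this held for Ikbkb, late against early ND (-0.026, adjusted p = 0.940), Nlrp1b, early ND against untreated (-0.10, adjusted p = 0.979), the ratio Il1rn to Il1b, early ND against untreated (0.0087, exact permutation adjusted p = 0.960), and the ratio Casp4 to Casp1, late ND against untreated (0.023, exact permutation adjusted p = 0.900). Early ND against untreated, Il18 was at 0.13 (adjusted p = 0.986) and Txnip at -0.011 (adjusted p = 0.999) without the libraries high in skin markers, Il18 was at 0.12 with the replicate block (adjusted p = 0.996), and Il1rn to Il1b was at 0.0042 with a pseudocount of 5 counts (exact permutation adjusted p = 0.976). On leaving out 1 mouse, late ND against untreated ranged from -0.021 to 0.37 for Il1b, -0.11 to 0.24 for Casp4, -0.12 to 0.30 for Il1rn to Il1b and -0.059 to 0.14 for Il1r2 to Il1rap. Early ND against untreated ranged from -0.36 to 0.40 for Il18, -0.039 to 0.14 for Pycard, -0.049 to 0.21 for Nlrp1a, -0.10 to 0.40 for Nlrp1b, -0.021 to 0.17 for Txnip and -0.15 to 0.13 for Il1rn to Il1b. Late against early ND, Il1rn to Il1b ranged from -0.12 to 0.31. The ratio Il1r2 to Il1rap, early ND against untreated, kept its sign and ranged from -0.68 to -0.48. Without untreated 5 its exact permutation adjusted p was 0.0357, against 0.0714 with all mice, through the tie described above. The cause of these changes was not tested.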
